A study of Homo sapiens with 36 samples.

Results

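The 9 genes described here are early targets of NF-kB, a transcription factor family: NFKBIA, TNFAIP3, CXCL8, CXCL1, CXCL2, IER3, ICAM1, BIRC3 and RELB. They were taken by name from the 59607 features of the total RNA count tables, and all 9 were found there. The choice was made with earlier results of these data known, so the shares of members set beside all features below are descriptive. Their RNA was measured in HCT116, a human colon carcinoma cell line, in which the RNA exosome nuclease DIS3 can be removed with auxin. The control line expressed TIR1, the plant receptor through which auxin sends a tagged protein to degradation. In the DIS3-AID line, a single CRISPR clone, DIS3 carries the auxin-inducible degron (AID). Each line was either left untreated or given 500 uM auxin for 1 h, with no NF-kB stimulus in the labels. Ribosomal RNA was depleted and total RNA sequenced from the cytoplasm and from chromatin, with 3 libraries for each of the 4 conditions in each fraction, or 24 libraries. Another 12 polyA libraries of the series were not used.

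NF-kB is a dimer of RELA, REL, RELB, NFKB1 and NFKB2 products that is held in the cytoplasm by IkB proteins. Signals from cytokine or pattern receptors activate the IKK kinase complex, which marks IkB for degradation, and the freed dimers enter the nucleus and bind kappaB sites in promoters and enhancers. Many early targets feed back on the pathway or recruit leukocytes, and their mRNAs are often short-lived, in part through AU-rich elements in the 3′ UTR. In colon epithelium the pathway is known for its part in inflammation.

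The 12 cytoplasm libraries held 59.5 to 122.6 M counts each and the 12 chromatin libraries 50.3 to 139 M. Since the design text describes the cytoplasm replicates as technical, each p-value reflects only the variation among these libraries. Whether the chromatin replicates are separate cultures or technical is not given in the sources used here, and the same limit holds for them. DIS3 mRNA was already lower in untreated DIS3-AID cells than in control cells (50.1 ± 2.63 against 90.5 ± 2.58 CPM in the cytoplasm, SD, n = 3), while the DIS3 protein that the degron removes was not measured. Of 9 epithelial markers, 6 reached 1 CPM in the cytoplasm (summed level 2700 to 3500 CPM per library), of 6 fibroblast markers 1 did (8.92 to 14.7 CPM) and of 7 blood cell markers none did (0.168 to 0.718 CPM), with no marker at 0 in all libraries. CPM scales counts to one common library total after TMM scaling within a fraction.

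The kappaB sites in the promoters of these genes are shown first, where a promoter sequence was at hand. RefSeq promoters (GRCh38.p14) were matched for 7 of the 9 genes, all but IER3 and RELB. In the 250 bases before the start, the pattern GGNNNTTCC, searched on both strands, was present in 7 of 7, against 17.1% of 35114 promoters. The longer kappaB consensus was present in 6 of 7 (all but ICAM1) against 12.3%. It can overlap the shorter pattern and did in 5 of the 6, while in CXCL8 its match began 17 bases before the start, apart from the site listed. TATAAA on the gene's strand was present in 2 of 7 (CXCL8 and ICAM1) against 6.8%. Below, each line gives the gene, the coordinates and strand, and the site in capitals with up to 9 bases on each side, 5′ to 3′ on the gene's strand.
NFKBIA, chr14:35404974-35404999, minus strand: ggtcggaaGGACTTTCCagccactcg
NFKBIA, chr14:35404813-35404839, minus strand: gactggcttGGAAATTCCccgagcctg
TNFAIP3, chr6:137867183-137867209, plus strand: cgtgactttGGAAAGTCCcgtggaaat
TNFAIP3, chr6:137867195-137867221, plus strand: aagtcccgtGGAAATCCCcgggcctac
CXCL8, chr4:73740469-73740495, plus strand: gcaaatcgtGGAATTTCCtctgacata
CXCL1, chr4:73869306-73869332, plus strand: ggaactccgGGAATTTCCctggcccgg
CXCL1, chr4:73869331-73869357, plus strand: gggggctccGGGCTTTCCagccccaac
CXCL2, chr4:74099255-74099281, minus strand: ggagctccgGGAATTTCCctggcccgg
CXCL2, chr4:74099231-74099257, minus strand: cgggactccGGGCTTTCCagccccaac
ICAM1, chr19:10270925-10270951, plus strand: ctttagcttGGAAATTCCggagctgaa
BIRC3, chr11:102317276-102317302, plus strand: ttgggtcatGGAAATCCCcgagtgggt

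The paralogues CXCL1 and CXCL2 had the same pair of sites. The first began 78 bases before the start in CXCL1 and 77 in CXCL2, and the second 53 bases before the start in both. The sites of TNFAIP3 and BIRC3 matched the pattern on the opposite strand. NFKBIA and CXCL1 are shown whole, one as an inhibitor with a pair of sites far apart, the other as the chemokine whose site pair CXCL2 repeats, with the sites in capitals.
NFKBIA promoter, chr14:35404750-35404999, minus strand: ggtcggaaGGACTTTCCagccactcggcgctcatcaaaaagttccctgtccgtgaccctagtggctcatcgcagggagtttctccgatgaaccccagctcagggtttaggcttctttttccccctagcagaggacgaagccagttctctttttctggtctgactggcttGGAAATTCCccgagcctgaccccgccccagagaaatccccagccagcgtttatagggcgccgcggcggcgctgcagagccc
CXCL1 promoter, chr4:73869143-73869392, plus strand: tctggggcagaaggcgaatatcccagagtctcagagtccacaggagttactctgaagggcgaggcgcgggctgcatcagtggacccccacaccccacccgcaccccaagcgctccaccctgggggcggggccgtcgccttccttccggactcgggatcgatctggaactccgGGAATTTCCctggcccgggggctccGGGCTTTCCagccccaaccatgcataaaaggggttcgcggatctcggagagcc
A match is a run of letters and does not show binding, and no library here measured NF-kB on DNA.

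The genes were expressed at very different levels without any stimulus. In untreated control cytoplasm, scaled per kilobase of exon (hg38, GENCODE 29), IER3, an immediate early gene linked to survival, stood at 66.0 ± 3.92 CPM per kilobase (SD, n = 3 throughout this order). NFKBIA (IkB alpha, chromosome 14, 35401511 to 35404749, minus strand) followed at 21.5 ± 0.628, RELB at 5.45 ± 0.535 and TNFAIP3 (A20, chromosome 6, 137867188 to 137883312, plus strand) at 1.29 ± 0.0719. The other 5 were low: BIRC3 at 0.523 ± 0.0553, CXCL2 at 0.514 ± 0.0693, CXCL1 at 0.442 ± 0.089, CXCL8 at 0.264 ± 0.0733 and ICAM1 at 0.205 ± 0.0336 CPM per kilobase. Neighbours in this order overlapped in their libraries for BIRC3 and CXCL2, CXCL2 and CXCL1, and CXCL8 and ICAM1, and in no other pair. The low levels rest on few counts, such as 33 to 83 per library for CXCL8.

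Chromatin RNA, which holds nascent and retained transcripts, was compared with the cytoplasm in untreated control cells. The CPM values are scaled within a fraction and the log2 differences across both, so they do not match: the RELB means have a ratio of 3.88 in CPM and a fold of 2.49 in the fit. Relative to all RNA of its fraction, 8 of the 9 genes were lower on chromatin and RELB was higher. IER3 had 84.8, 88.3 and 95.3 CPM in the cytoplasm and 1.77, 1.75 and 1.37 CPM on chromatin (log2 difference -6.44 ± 0.14 SE, edgeR adjusted p = 1.64e-25). NFKBIA had 50.3, 50.2 and 52.8 CPM in the cytoplasm and 4.03, 3.99 and 3.37 CPM on chromatin (-4.40 ± 0.09 SE). For both genes, no library of one fraction came near those of the other.

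RELB encodes the subunit of the non-canonical pathway (chromosome 19, 45001430 to 45038198, plus strand). It had 15.2, 16.0 and 18.4 CPM in the cytoplasm and 62.6, 68.8 and 60.7 CPM on chromatin (log2 difference 1.31 ± 0.11 SE, edgeR adjusted p = 4.65e-12). All chromatin libraries were above all cytoplasm libraries, and RELB led the order per kilobase on chromatin with 21.1 ± 1.4 against 1.6 ± 0.157 for NFKBIA. The other members were lower on chromatin, with log2 differences of -4.76 for CXCL8, -2.21 for CXCL1, -1.91 for BIRC3, -1.87 for CXCL2, -1.86 for TNFAIP3 and -1.32 for ICAM1. The CXCL8 value rests on 10 chromatin counts in all.

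Of 27418 features tested with edgeR between fractions, 46.2% were called higher and 44% lower on chromatin, so a call alone says little here. The members' median was -1.91, against -0.56 for protein-coding genes and 0.10 for all features. Scaling by library sizes alone moved the median of all features to 0.76 and the share of higher calls from 51.2 to 61.5%. Under that scaling the member values shifted to between -5.78 for IER3 and 1.98 for RELB, with the same 8 lower and 1 higher. Among the family subunits, NFKB1 was also higher on chromatin (0.69) and RELA (-2.75), NFKB2 (-1.55) and REL (-0.82) were lower. Whether reads of introns were counted is not given in the sources used here.

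**Figure D1:**
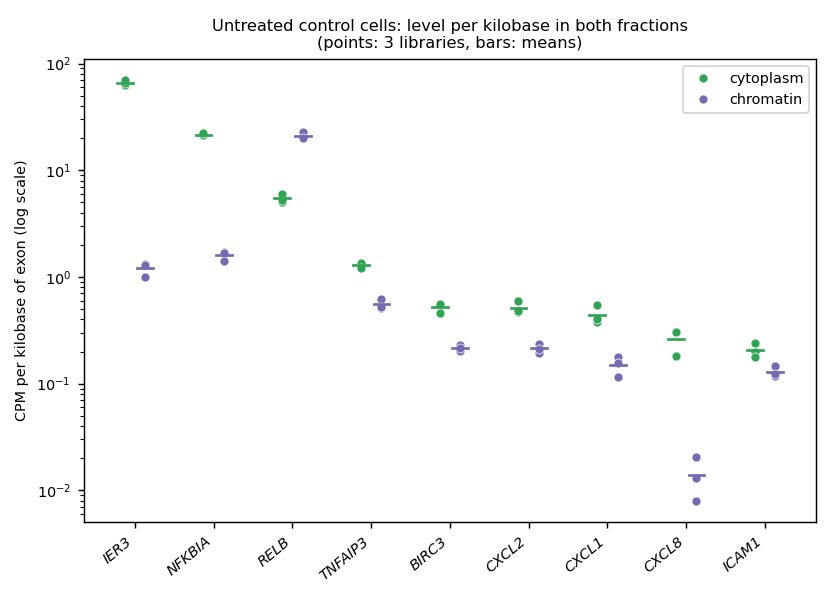
Level of each gene in untreated control cells, in CPM per kilobase of exon on a log axis, scaled within each fraction, with 1 point per library (3 per fraction) and a bar at the mean. IER3 and NFKBIA are far higher in the cytoplasm (66.0 and 21.5) than on chromatin (1.2 and 1.6), and RELB is the 1 gene with its chromatin points on top (21.1 against 5.45).

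After 1 h of auxin in DIS3-AID cells, the cytoplasmic RNA of 6 of the 9 targets fell and none rose. The 6 were the inhibitors NFKBIA and TNFAIP3, the chemokines CXCL8, CXCL1 and CXCL2, and IER3. As background, edgeR called 13.2% of the 23027 tested features lower and 21.1% higher. Of the 14396 protein-coding genes among them, 2886 were lower and 1044 higher. The median log2 change of the members was -0.43, against -0.05 for all features and -0.10 for protein-coding genes. In bulk RNA, fewer cells with a transcript and less of it per cell cannot be told apart.

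The inhibitors are described first. NFKBIA, which holds NF-kB dimers in the cytoplasm and is itself a target, had 46.5, 45.5 and 44.7 CPM in untreated DIS3-AID cells and 35.1, 34.2 and 32.1 CPM after auxin. The groups did not overlap, and the mean fell by 25.9% (log2 change -0.43 ± 0.05 SE, edgeR adjusted p = 1.89e-06). In control cells NFKBIA had 50.3, 50.2 and 52.8 CPM untreated and 46.5, 48.9 and 51.0 CPM with auxin, and these overlapped (-0.07 ± 0.05 SE, adjusted p = 0.924).

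TNFAIP3, the ubiquitin-editing enzyme A20 that shuts off signalling to IKK, had 5.59, 5.10 and 5.42 CPM untreated and 4.81, 3.51 and 4.28 CPM after auxin in DIS3-AID cells. Every auxin library was below every untreated one, with replicate 2 the lowest (log2 change -0.34 ± 0.10 SE, edgeR adjusted p = 0.0107). Without that library the change was -0.21 (adjusted p = 0.101), and with library sizes alone -0.24 (adjusted p = 0.0872). Control cells had 6.52, 6.88 and 6.15 CPM untreated and 6.12, 6.57 and 6.52 CPM with auxin, an overlap with a difference of -0.03.

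The chemokines draw neutrophils and lie in 1 cluster on chromosome 4. CXCL8 (73740506 to 73743716, plus strand) had 0.579, 0.533 and 0.391 CPM untreated and 0.297, 0.308 and 0.169 CPM after auxin, from 29 to 51 and 14 to 30 counts. CXCL1 (73869393 to 73871242, plus strand) had 0.466, 0.412 and 0.485 CPM untreated and 0.237, 0.356 and 0.217 CPM after auxin. CXCL2 (74097035 to 74099293, minus strand) had 0.886, 0.799 and 0.728 CPM untreated and 0.633, 0.534 and 0.615 CPM after auxin. For all 3 genes the auxin libraries lay below the untreated ones without overlap.

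The log2 changes were -0.97 ± 0.29 SE for CXCL8 (edgeR adjusted p = 0.0133), -0.79 ± 0.24 SE for CXCL1 (adjusted p = 0.0149) and -0.43 ± 0.16 SE for CXCL2 (adjusted p = 0.048). CXCL2 stayed just under the threshold, and each of the 11 alternative fits put it above, with adjusted p between 0.0549 and 0.196. In control cells the same genes overlapped between treatments (-0.08, 0.00 and 0.25).

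IER3 (chromosome 6, 30743199 to 30744554, minus strand) had 64.3, 77.2 and 85.2 CPM untreated and 54.7, 49.7 and 63.0 CPM after auxin in DIS3-AID cells. The highest auxin library lay just below the lowest untreated one (log2 change -0.44 ± 0.11 SE, edgeR adjusted p = 0.00612). In control cells IER3 did not differ between treatments beyond the spread (-0.00 ± 0.11 SE).

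ICAM1, BIRC3 and RELB were not called. ICAM1, the adhesion molecule that leukocyte integrins bind (chromosome 19, 10270835 to 10286615, plus strand), had 0.954, 0.968 and 0.984 CPM untreated and 0.761, 0.842 and 0.760 CPM after auxin. These libraries did not overlap, but at 52 to 84 counts each the change of -0.30 ± 0.18 SE had an edgeR adjusted p of 0.19. BIRC3, the survival factor cIAP2 (chromosome 11, 102317450 to 102339403, plus strand), overlapped between groups (-0.29 ± 0.14 SE, adjusted p = 0.111). RELB overlapped as well (-0.10 ± 0.10 SE, adjusted p = 0.42).

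**Figure D2:**
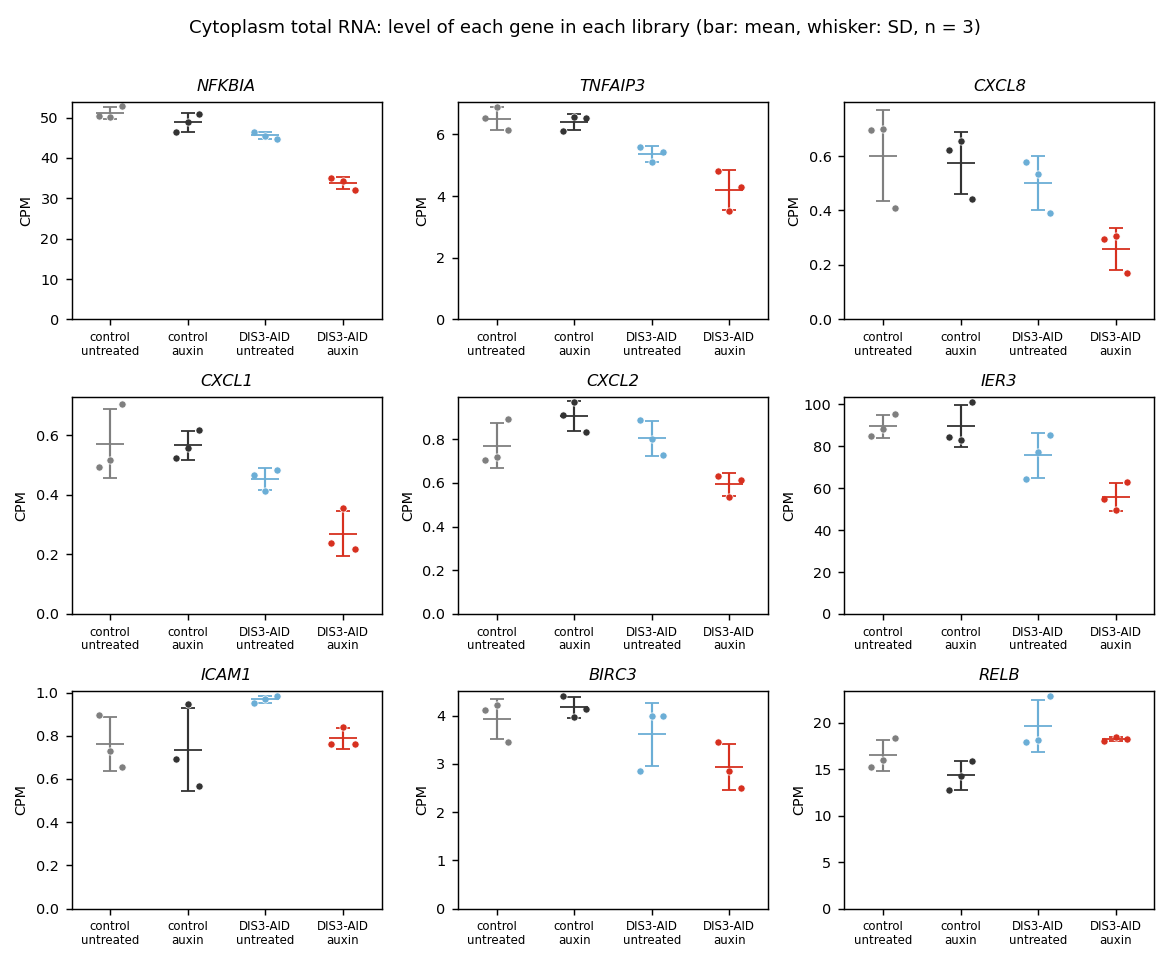
Cytoplasmic level of each gene in CPM (axis from 0) in each of the 12 libraries, with the mean and SD of each group of 3. The red points (DIS3-AID with auxin) lie below the blue ones (DIS3-AID untreated) without overlap in 7 panels (the mean fell by 25.9% for NFKBIA and fell by 48.5% for CXCL8), while the grey and black control points overlap in all 9. Over all features 19.8% were lower without overlap in DIS3-AID cells, and in control cells 7% were higher and 5.82% lower.

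By libraries alone, 7 of the 9 members were lower without overlap after auxin in DIS3-AID cells, where 19.8% of 21967 features with a mean count of 10 or more were. In control cells no member was separated in either direction, and 7% of features were higher and 5.82% lower without overlap. The count of 6 called members fell to 3 when DIS3-AID untreated replicate 1, DIS3-AID auxin replicate 2 or DIS3-AID auxin replicate 3 was left out, and NFKBIA was called in all 3 of these fits. Over the 6 fits without 1 library, NFKBIA alone kept its call throughout. CXCL8 lost it without DIS3-AID untreated replicate 1 or auxin replicate 3, and CXCL1 without either of these or auxin replicate 1. TNFAIP3 lost it without untreated replicate 1 or auxin replicate 2, and IER3 without untreated replicates 2 or 3 or auxin replicate 2. In these fits without a call CXCL8 stood at -0.83 and -0.73, CXCL1 at -0.75 to -0.66, TNFAIP3 at -0.29 and -0.21 and IER3 at -0.40 to -0.32. With library sizes alone 4 were called (NFKBIA, CXCL8, CXCL1 and IER3), and the share of higher calls among all features went from 61.5 to 89.1%.

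In control cells auxin itself left no member called in the cytoplasm. The edgeR background was 0.0217% higher and 0.0261% lower of 23027 features, 11 in all. Of the members 1 had an unadjusted p under 0.05, RELB with 15.2, 16.0 and 18.4 CPM untreated and 12.8, 14.3 and 15.9 CPM with auxin (log2 difference -0.21 ± 0.10 SE, adjusted p = 0.806), and DESeq2 called none. With the replicate number as a block, a setting in which same-numbered libraries did deviate together, 62 features passed and no member did.

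The difference between the lines' responses to auxin was tested directly, over the same 12 libraries as the separate comparisons. In the cytoplasm it passed for 2 of the 9 members, both lower in DIS3-AID cells, where 3.31% of features were called lower and 16.1% higher. NFKBIA differed by -0.36 ± 0.07 SE (edgeR adjusted p = 0.00104) and CXCL2 by -0.68 ± 0.22 SE (adjusted p = 0.0337). In control cells CXCL2 had 0.705, 0.718 and 0.891 CPM untreated and 0.909, 0.971 and 0.835 CPM with auxin, which overlapped. Its call was lost in 8 of the 12 fits that left out a library (values -0.69 to -0.58). It held without replicate 3 of control untreated, control auxin or DIS3-AID untreated cells, and without replicate 1 of DIS3-AID auxin cells. The count of members called over the 12 fits ran from 1 to 3. Not called were CXCL8 (-0.89, adjusted p = 0.104), CXCL1 (-0.79, adjusted p = 0.0817), IER3 (-0.44, adjusted p = 0.0624), BIRC3 (-0.37), TNFAIP3 (-0.31), ICAM1 (-0.25) and RELB (0.10). The SE of these 7 differences ran from 0.13 to 0.37. IER3 was called with DESeq2 (adjusted p = 0.0171), without the filter on low counts (2.04e-05) and with the replicate number as a block (0.000446), and CXCL8 with the block (0.025). The CXCL2 call was lost with DESeq2 (adjusted p = 0.0656), without the filter (edgeR, 0.0929) and with library sizes alone (edgeR, 0.0775).

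The untreated lines were compared as well. In the cytoplasm 2 of 9 members were called lower in DIS3-AID cells than in control cells and none higher, where 12.4% of features were lower and 9.67% higher. NFKBIA went from 50.3, 50.2 and 52.8 to 46.5, 45.5 and 44.7 CPM (log2 difference -0.17 ± 0.05 SE, edgeR adjusted p = 0.0291). TNFAIP3 went from 6.52, 6.88 and 6.15 to 5.59, 5.10 and 5.42 CPM (-0.28 ± 0.09 SE, adjusted p = 0.0352). Neither overlapped between lines, yet both calls were lost whichever of the 6 libraries was left out. The fits without control untreated replicate 3 or DIS3-AID untreated replicate 2 called RELB higher (0.35 and 0.32), and the others no member. The other differences ran from -0.32 (CXCL1) to 0.33 (ICAM1), and RELB stood at 0.25 (adjusted p = 0.0741). RELB was called higher with library sizes alone (adjusted p = 0.0435), without the filter (0.00541), with DESeq2 (0.0249) and with the replicate number as a block (0.0085). IER3 was called lower without the filter (-0.24, adjusted p = 0.000903) and with the block (-0.25, adjusted p = 0.00333). This comparison and the auxin comparison share the 3 untreated DIS3-AID libraries.

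On chromatin the picture after auxin differed between lines in 2 genes that rose in control cells. RELB had 62.6, 68.8 and 60.7 CPM in untreated and 80.7, 78.7 and 96.4 CPM in auxin-treated control cells, with no overlap (log2 change 0.41 ± 0.11 SE, edgeR adjusted p = 0.0156). TNFAIP3 had 3.14, 2.60 and 2.64 CPM untreated and 4.55, 3.80 and 3.52 CPM with auxin, again with no overlap (0.50 ± 0.11 SE, adjusted p = 0.0038). These were 2 of 8 members tested, with none lower, where 9.02% of 24966 features were called higher and 7.97% lower. Leaving out control untreated replicate 3 or control auxin replicate 3 ended the RELB call (adjusted p = 0.0722 and 0.0569), and without the former library the calls over all features fell from 4242 to 2313.

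BIRC3 was also separated in control chromatin, with 1.74, 1.51 and 1.61 CPM untreated and 2.04, 1.86 and 1.91 CPM with auxin, but was not called (0.25 ± 0.12 SE, edgeR adjusted p = 0.168). CXCL2 was separated downwards at 14 to 43 counts (-0.41 ± 0.25 SE, adjusted p = 0.304). By libraries alone, 3 members were thus higher and 1 lower without overlap, where 17.4% of 24066 features were higher and 16.4% lower. CXCL8 had 1 to 7 counts per chromatin library and was not tested there.

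In DIS3-AID chromatin none of the 8 members tested was called after auxin, where 11% of features were higher and 9.54% lower by edgeR. All 8 log2 changes were negative, from -0.564 (CXCL1) to -0.105 (BIRC3). Their median was -0.19, against 0.00 for all features and -0.03 for protein-coding genes. By libraries alone 3 members were lower without overlap (NFKBIA, TNFAIP3 and IER3) and none higher, where 17.7% of 24066 features were lower and 17.8% higher. Of the 8, 1 had an unadjusted p under 0.05, and DESeq2 called none. NFKBIA had 3.56, 3.90 and 3.41 CPM untreated and 3.36, 2.31 and 3.02 CPM after auxin, lower without overlap (log2 change -0.31 ± 0.13 SE, adjusted p = 0.0986). RELB had 60.6, 70.3 and 61.2 CPM untreated and 70.6, 53.9 and 51.0 CPM after auxin, an overlap in which replicate 1 of the auxin group was the highest of the 6. Without that library RELB stood at -0.29 (adjusted p = 0.0318) and NFKBIA at -0.44 (adjusted p = 0.0402), and 2 members were then called. TNFAIP3 had 2.09, 2.47 and 2.16 CPM untreated and 2.08, 2.0 and 2.05 CPM after auxin, the untreated libraries just above (-0.13 ± 0.13 SE, adjusted p = 0.528).

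**Figure D3:**
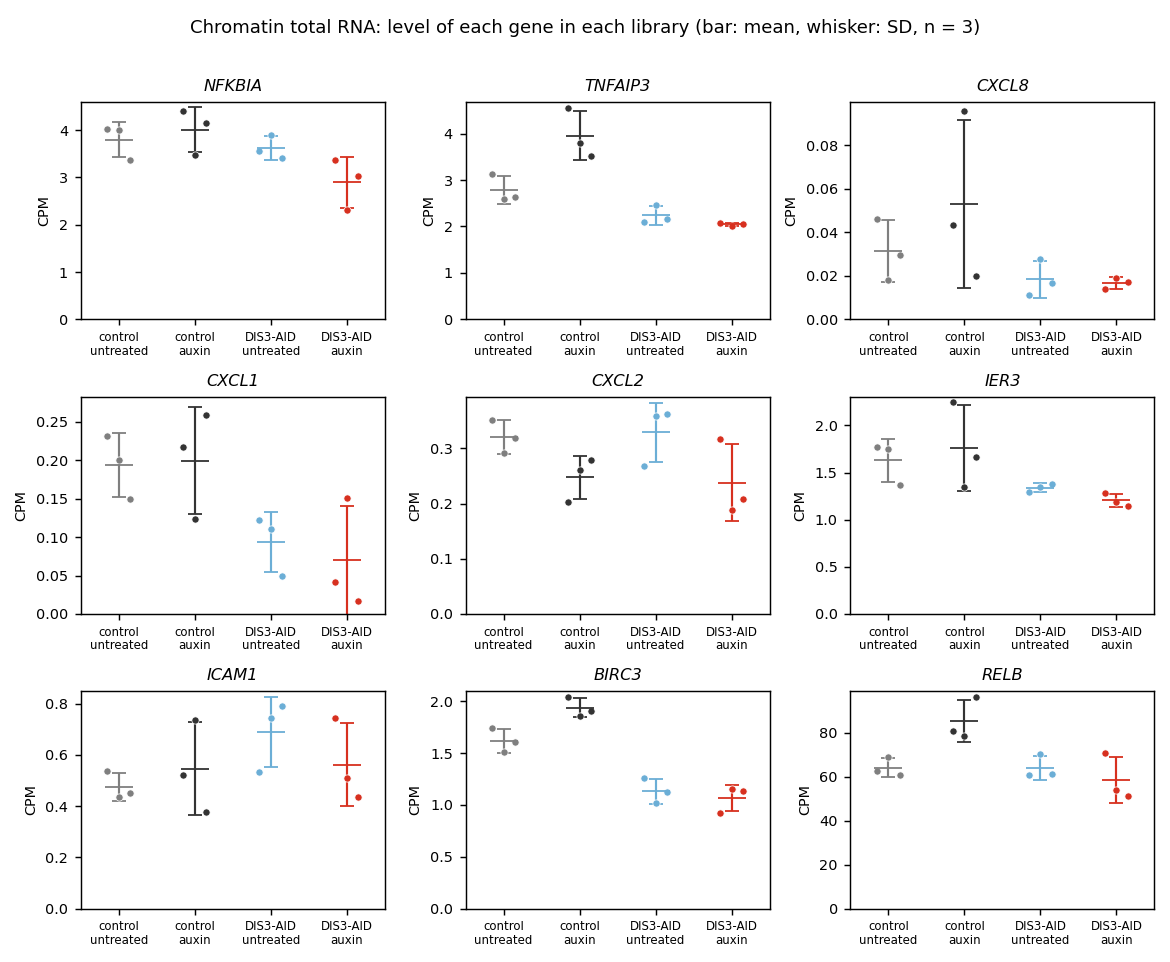
Chromatin level of each gene in CPM (axis from 0) in each of the 12 libraries, with the mean and SD of each group of 3. The black points (control with auxin) stand above the grey ones (control untreated) in the panels of TNFAIP3, BIRC3 and RELB and below them in that of CXCL2. Over all features 17.4% were higher and 16.4% lower without overlap in this comparison. CXCL8 lies below 0.1 CPM in every library.

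Tested as a difference between lines, the chromatin response to auxin was lower in DIS3-AID cells for TNFAIP3 (-0.63 ± 0.17 SE, edgeR adjusted p = 0.0136) and RELB (-0.54 ± 0.15 SE, adjusted p = 0.023). That is 2 of 8 members lower and none higher, where 9.2% of features were lower and 8.54% higher. The RELB call was lost in 4 of 12 fits without 1 library (control untreated replicate 3, DIS3-AID untreated replicate 2, and DIS3-AID auxin replicates 2 and 3), with values between -0.51 and -0.46, and 1 member was then called. NFKBIA stood at -0.40 (adjusted p = 0.132).

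The untreated lines differed on chromatin in BIRC3 and TNFAIP3, both lower in DIS3-AID cells. BIRC3 went from 1.74, 1.51 and 1.61 to 1.26, 1.02 and 1.12 CPM without overlap (log2 difference -0.52 ± 0.12 SE, edgeR adjusted p = 0.00358). TNFAIP3 went from 3.14, 2.60 and 2.64 to 2.09, 2.47 and 2.16 CPM without overlap (-0.33 ± 0.12 SE, adjusted p = 0.0352). The background was 17.4% lower and 15.2% higher, so 2 of 8 lower is close to it. The TNFAIP3 call was lost without control untreated replicate 1 (-0.23), DIS3-AID untreated replicate 1 (-0.28) or DIS3-AID untreated replicate 3 (-0.31), and with library sizes alone (-0.28).

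**Figure D4:**
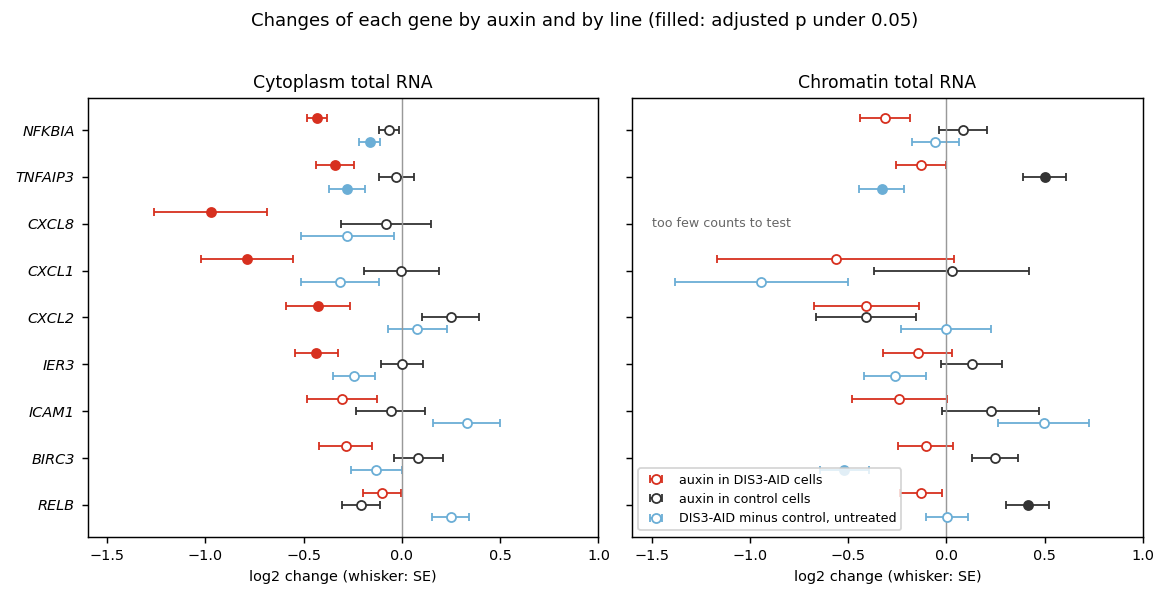
Log2 change of each gene in 3 comparisons within the cytoplasm (left) and chromatin (right), with whiskers of 1 SE and filled points at edgeR adjusted p under 0.05. The filled red points, auxin in DIS3-AID cells, are 6 of 9 in the cytoplasm and absent on chromatin, where the filled black points, auxin in control cells, are TNFAIP3 at 0.50 and RELB at 0.41. The open red points on chromatin are all negative. Over all features, auxin in DIS3-AID cells gave 13.2% lower in the cytoplasm and 9.54% lower on chromatin. Auxin in control cells gave 9.02% higher on chromatin.

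Whether the auxin response differed between fractions was tested over both. When the auxin response of DIS3-AID cells on chromatin was set against that in their cytoplasm, edgeR called none of the 9 members, where 22.1% of 27418 features were higher and 11% lower. Of the members 3 had an unadjusted p under 0.05, and DESeq2 called none. NFKBIA stood at 0.30 ± 0.13 SE (adjusted p = 0.0696), TNFAIP3 at 0.39 ± 0.17 SE (adjusted p = 0.0747) and IER3 at 0.47 ± 0.22 SE (adjusted p = 0.104), and all 9 values were positive, from 0.16 (RELB) to 1.04 (CXCL8). The members' median was 0.36, against 0.23 for protein-coding genes, of which 5483 of 15119 were called higher and 687 lower. With library sizes alone the median of all features moved from 0.16 to -0.17, the share of higher calls from 66.6 to 6.4%, and 4 of the 9 members turned negative (NFKBIA -0.03, ICAM1 -0.08, CXCL2 -0.12 and RELB -0.18), while the other 5 ran from 0.04 (BIRC3) to 0.71 (CXCL8) with none called. Without the filter on low counts NFKBIA (0.36), TNFAIP3 (0.44) and IER3 (0.53) passed, with adjusted p of 0.0285, 0.039 and 0.00497. For the line difference, chromatin minus cytoplasm, edgeR called no member (6.58% of features higher, 6.61% lower), none had an unadjusted p under 0.05, DESeq2 called none, and BIRC3 stood at -0.39 ± 0.20 SE.

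Antisense genes overlap 3 of the members, and strand use in counting is not given in the sources used here. WAKMAR2 (chromosome 6, 137823673 to 137868233, minus strand) shares 1046 bases with TNFAIP3. It had 0.363, 0.339 and 0.175 CPM in untreated and 0.890, 0.842 and 0.628 CPM in auxin-treated DIS3-AID cytoplasm (log2 change 1.40 ± 0.23 SE, edgeR adjusted p = 8.71e-05), rising where TNFAIP3 fell. ICAM4-AS1 (chromosome 19, 10285801 to 10289019, minus strand) shares 815 bases with the end of ICAM1.

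ICAM4-AS1 rose from 0.159, 0.0968 and 0.148 to 0.474, 0.648 and 0.784 CPM in the same libraries (2.21 ± 0.32 SE, edgeR adjusted p = 1.69e-05). It also rose on DIS3-AID chromatin (0.51 ± 0.11 SE, adjusted p = 0.00265). Both were tested between lines in the cytoplasm as well, and the auxin effect was higher in DIS3-AID cells for WAKMAR2 (1.55, adjusted p = 0.00262) and ICAM4-AS1 (2.46, adjusted p = 0.00185). On control chromatin with auxin, where TNFAIP3 rose by 0.50, WAKMAR2 stood at 0.50 ± 0.21 SE and was not called (adjusted p = 0.111). Whether reads of these antisense RNAs enter the counts of TNFAIP3 and ICAM1 was not tested. In DIS3-AID cytoplasm after auxin, LIMASI, antisense to ICAM1 over 14274 bases, was not called (0.21), and IER3-AS1 had at most 3 counts per library. FLOT1, whose start lies 1821 bases from that of IER3 on the same strand, fell slightly (-0.17, adjusted p = 0.0285).

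The other genes of the pathway were described from lists of its parts. In DIS3-AID cytoplasm after auxin, 2 of 5 family subunits fell, REL (-0.26) and NFKB2 (-0.22), and RELA (at 91.6 ± 5.73 and 80.7 ± 6.22 CPM) did not pass. Of 11 IkB proteins and brakes 4 fell, the members NFKBIA and TNFAIP3 with NFKBIZ (-0.33), a nuclear IkB, and CYLD (-0.18), a deubiquitinase. Of 24 IKK and adaptor genes 3 fell: MAP3K14 (-0.41), the kinase NIK of the non-canonical pathway, BCL10 (-0.31) and TAB2 (-0.17). Among the upstream ligands and receptors 3 of 11 tested fell, CD40 (-0.30), LTBR (-0.28) and TNFRSF1A (-0.20). None of these 4 lists had a gene that rose. Their shares stand beside 13.2% of all features called lower and 2886 of 14396 protein-coding genes, and the 3 of 24 IKK and adaptor genes are not above either.

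Among other NF-kB targets, 10 of 19 tested (30 listed) fell and 1 rose, with a median of -0.29. Of all protein-coding genes 2886 of 14396 fell and 1044 rose. PTGS2, the inducible cyclooxygenase, had the largest fall, with 0.458 ± 0.0976 CPM untreated and 0.168 ± 0.0864 CPM after auxin (SD, n = 3), a log2 change of -1.39 ± 0.31 SE (edgeR adjusted p = 0.00167). PLAU, the urokinase, fell by 0.63 on the log2 scale, ZC3H12A, the RNase Regnase-1, by 0.49 and GADD45B by 0.46. The 1 that rose was CFLAR (0.20), an inhibitor of caspase-8. Tested between lines, 5 of the 19 were lower (PTGS2, EFNA1, IRF1, NINJ1 and GADD45B) and none higher, where 3.31% of all features and 707 of 14396 protein-coding genes were lower. In control cytoplasm no gene of these 5 lists was called after auxin. Between the untreated lines, 7 of the 19 other targets were lower in DIS3-AID cytoplasm and 3 higher. Of all features 12.4% were lower and 9.67% higher in that comparison, and 2531 of 14396 protein-coding genes were lower.

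Some other early response genes, which do not depend on NF-kB alone, fell in the same libraries. After auxin in DIS3-AID cytoplasm, 3 of 10 AP-1 genes fell (JUNB -0.63, JUN -0.33, FOSL1 -0.17; list median -0.34) and 3 of 7 NR4A and EGR genes did (NR4A3 -1.08, EGR3 -1.02, NR4A1 -0.77; list median -0.67). None of either list rose, and 13.2% of all features and 2886 of 14396 protein-coding genes fell. Between the untreated lines, 7 of 7 NR4A and EGR genes were lower in DIS3-AID cytoplasm (median -1.51) and 5 of 10 AP-1 genes (median -0.66). In that comparison 12.4% of all features and 2531 of 14396 protein-coding genes were lower. The median of the 9 members was -0.17 there, and the contrast between lists was not tested. FOSB, for instance, stood at 194 ± 42 CPM in control and 47 ± 22.9 CPM in DIS3-AID cytoplasm (SD, n = 3; log2 difference -2.05, edgeR adjusted p = 0.00458).

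Of the remaining lists in this comparison, 3 of 8 AU-rich element binding proteins fell (ZFP36 -0.54, ZFP36L1 -0.16, HNRNPD -0.15), 2 of 7 epithelial markers fell (EPCAM -0.40, CDH1 -0.38) and 1 of 2 fibroblast markers did (COL1A1 -0.20). The 1 blood cell marker tested was not called. These small lists stand beside 2886 of 14396 protein-coding genes that fell. Of 4 chromatin-retained RNAs 2 rose, NEAT1 (0.71) and KCNQ1OT1 (0.49), where 21.1% of all features rose. The part of these markers in the members' falls was not tested.

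The lists were also followed on chromatin. In control cells with auxin, 9.02% of all features were higher and 7.97% lower. There BCL3 (0.60), an IkB-like co-activator, and REL (0.23) rose beside TNFAIP3 and RELB, and OTULIN fell (-0.20). Of 10 AP-1 genes 5 rose, namely FOSB (1.06), MAFF (0.66), JUND (0.61), ATF3 (0.58) and FOSL1 (0.42), while BATF3 (-0.46) and FOSL2 (-0.24) fell. Of 17 other NF-kB targets tested 3 rose and 3 fell (median 0.01). Of 24 IKK and adaptor genes 2 rose and 3 fell, and of 10 ligands and receptors 1 rose and 1 fell. In DIS3-AID cells with auxin, where 11% of all features were higher and 9.54% lower, no family subunit was called. NFKBIZ (-0.40), NFKBID (-0.27) and TNIP2 (-0.23) were the 3 brakes that fell. Of 17 other NF-kB targets tested 2 rose and 6 fell, and of 10 ligands and receptors 1 rose and 4 fell. Of 24 IKK and adaptor genes 5 fell and none rose. Tested between lines, BCL3 (-0.52), NFKBIZ (-0.52) and NFKBID (-0.38) were lower in DIS3-AID cells together with TNFAIP3, where 9.2% of all features were lower and 8.54% higher. Of 17 other NF-kB targets 3 were lower and 2 higher. Between the untreated lines, 17.4% of all features and 3203 of 14642 protein-coding genes were lower in DIS3-AID chromatin, and 15.2% of all features were higher. Of 17 other NF-kB targets 11 were lower and 3 higher there, and of 24 IKK and adaptor genes 10 and 3. Of 11 IkB proteins and brakes 5 were lower, of 10 ligands and receptors 4 (with 1 higher) and of 5 family subunits 2.

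The genes whose pattern over the 8 groups was closest to NFKBIA were found by the root mean square difference of mean log2 CPM, with each gene centred within a fraction. Over 20889 features tested in both fractions the closest were OSR1 (0.03), MESD, SLC27A6, the lincRNA ENSG00000225643 and COL6A2 (all 0.04), where the median feature lay at 0.23. Of the other members IER3 was nearest (0.07, rank 75), then CXCL2 (0.15), BIRC3 (0.16), TNFAIP3 (0.17), CXCL1 (0.19), RELB (0.26) and ICAM1 (0.27). RELB and ICAM1 were thus farther from NFKBIA than the median feature.

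AU-rich pentamers were denser in the chemokines than in the inhibitors. In the longest annotated 3′ UTR (GENCODE 29) the sequence ATTTA occurred 13.8 times per kilobase in CXCL2, 7.17 in CXCL8, 7.05 in CXCL1, 6.62 in IER3 and 5.21 in BIRC3. NFKBIA (1.86), ICAM1 (1.5) and TNFAIP3 (1.27) lay near the median of 1.5 over 17892 genes, and RELB had none. Among all genes 0.145% reached the density of CXCL2 and 2.47% that of IER3. The nonamer TTATTTATT was present in 5 of 9 members (CXCL8, CXCL1, CXCL2, BIRC3 and TNFAIP3) against 8.81% of genes.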

How the data were processed

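Per the labels, total RNA libraries were made with a stranded kit that depletes ribosomal RNA, from HCT116 cytoplasm and chromatin, and sequenced on a NovaSeq. The authors deposited 1 table of read counts per library. The submitters' processing notes name STAR 2.7.3a, Cufflinks 2.2.1 and featureCounts 2.0.0 on hg38, without parameters. How reads of multiple positions and the strand were counted is not given in the sources used here. Of 59607 features, 57836 were found in GENCODE 29 and 1433 are assembled loci.

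Each fraction (12 libraries, 4 groups of 3) was fitted with edgeR 4.0.16 (TMM scaling, the filterByExpr filter at a min.count of 10, robust quasi-likelihood F tests, Benjamini-Hochberg adjustment over all features tested, threshold 0.05). Comparisons between fractions used all 24 libraries. The SE of a log2 change is its size divided by the square root of F. The 11 comparisons were repeated with library sizes alone, without the filter, with the replicate number as a block, with DESeq2 1.42.0, with only the groups compared and without each library. R 4.3.3 and Python 3.11.15 were used, and the fit was tested on simulated data. Same-numbered libraries were taken as paired where their deviations from the group means, over features with a mean of 5 CPM or more, correlated above 0.1 in every pair. Of the comparisons, the auxin effect in control cytoplasm alone met this (3 pairs, 0.182 to 0.398). No library pair of a group agreed within counting error (chi-square per degree of freedom 4.7 or more).

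Sites were searched in RefSeq promoters and pentamers in annotated 3′ UTRs of 200 bases or more. All 9 members were examined in every comparison, and a member not named in one was not called there or was not tested. From each of 12 gene lists (138 genes) up to 4 called genes with the largest change could be named. All of them could be where 5 or fewer were called in a direction. Some lists and comparisons are given by counts alone or left out, so a list gene not named may still have been called. Features that overlap a member or start within 2 kb of it are named, with the 5 features most like NFKBIA. The members and lists were chosen with earlier results of these data known.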

Additional observations from a re-analysis of the deposited data

Results flagged for a closer look

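By a direct test, the response to auxin differed between the lines in 2 of 9 members in the cytoplasm and 2 of 8 on chromatin. In the cytoplasm it was lower in DIS3-AID than in control cells for NFKBIA (log2 difference -0.36, edgeR adjusted p = 0.00104) and CXCL2 (-0.68, adjusted p = 0.0337). On chromatin it was lower for TNFAIP3 (-0.63, adjusted p = 0.0136) and RELB (-0.54, adjusted p = 0.023). In the cytoplasm the control libraries of both genes overlapped between treatments and those of DIS3-AID cells did not. On chromatin the control libraries of TNFAIP3 and RELB rose with auxin and those of DIS3-AID cells were not called. Over all features, 3.31% were lower and 16.1% higher in the cytoplasm difference, and 9.2% lower and 8.54% higher in that on chromatin. The CXCL2 call was lost in 8 of 12 fits without 1 library, and the RELB call in 4 of 12.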

How the results depend on the processing

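Of 1210 values of single members under the alternatives, 1117 kept their direction and their side of the threshold or were called in neither fit, 59 lost a call, 34 gained one and none reversed a call (69 changed sign with no call in either fit). The cause of the changes was not tested.

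With library sizes alone, 1 member was called in the cytoplasm difference between responses and 1 in the chromatin line difference, and the chromatin minus cytoplasm response gave 5899 features. The higher share of calls moved from 82.9 to 94.5% in the cytoplasm difference between responses, and on chromatin from 53.5 to 39% for auxin in DIS3-AID cells, from 48.1 to 32.2% for the difference between responses and from 46.6 to 58.8% for the line difference. Without the filter, auxin in control cytoplasm gave 245 features, auxin in DIS3-AID chromatin 1 member (NFKBIA) and the chromatin minus cytoplasm response 3. DESeq2 gave 75 features for auxin in control cytoplasm, and the fit of only the groups compared gave 1 member for the cytoplasm line difference.

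The replicate block gave 62 features for auxin in control cytoplasm, where the numbers pair the libraries, and elsewhere, where they do not, 4 members for the cytoplasm line difference and 4 for the cytoplasm difference between responses. The block moved no other count by over 1.5 times.

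Leaving out 1 library gave these counts of members: 3 to 5 for auxin in DIS3-AID cytoplasm, 0 to 1 for the cytoplasm line difference, 1 to 3 for the cytoplasm difference between responses, 0 to 2 for auxin in DIS3-AID chromatin, 1 to 2 for auxin in control chromatin, the chromatin line difference and the chromatin difference between responses, and 0 to 2 for the chromatin minus cytoplasm response. Over all features, auxin gave 1 to 34 in control cytoplasm and 2313 to 4704 in control chromatin.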
